A study of Mus musculus with 10 samples.

Results

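The genes described here are 48 markers of cell proliferation, 27 that act in mitosis and 21 that act in DNA replication, out of 33538 human genes in the count table. The members are a fixed list of identifiers given together with their gene symbols. No cut-off on a measured value chose them, but the list was made with earlier results of these data known. All 48 passed the filter on low counts that left 16013 genes, and the lowest count of any member in any library was 29 reads (CCNE1).

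Tumours were grown from DAOY, an established human medulloblastoma cell line, on the flank of nude mice, which lack a thymus and so tolerate human grafts. The mice, all labelled female, ate ordinary chow (control, n = 3) or received DHA oil (n = 3) or fish oil (n = 4), and every tumour was taken at 30 days of treatment. DHA oil supplied docosahexaenoic acid, and the arm labelled fish oil is taken to be the one that combined it with eicosapentaenoic acid. The labels give no age, dose, batch or link from a library to an animal, so each p-value reflects only how much these samples vary, some of which may be technical. The RNA is of whole grafts, in which fewer dividing cells and less RNA per dividing cell cannot be told apart, and the cells of the host were not measured separately.

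A cell that divides first copies its DNA and then separates the copies. In G1, origins are licensed by loading of the MCM helicase. At the end of G1, E2F transcription factors and cyclin E commit the cell to S phase. There the fork proteins and the enzymes of nucleotide synthesis copy the genome. In G2 and mitosis cyclin B with CDK1, the Polo and Aurora kinases, the spindle motors and the kinetochore align and part the chromosomes until the anaphase-promoting complex ends the division. The transcripts of both sets are largely confined to cycling cells, which is why they serve as proliferation markers in tumours.

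Total counts per library ran from 6187116 to 10035702. Fish oil replicate 4 stood apart from the other libraries on the first principal component of all genes (26.4% of the variance), at -52.9, with fish oil replicate 2 next at -21.4 and the other 8 between -1.71 and 19.1. Values without fish oil replicate 4, or without both, stand beside the fish oil medians of both sets, their counts of directions and most members with the larger fold changes. Where they are not given, the part of these tumours in a fish oil value is not shown. Levels are in CPM, read counts rescaled to a common library size with TMM factors. They are compared between libraries for 1 gene and not between genes, because no transcript lengths were used. A gene was called at an adjusted p under 0.05 in edgeR's quasi-likelihood test.

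No member was called in any comparison of diets, and the mean levels of both sets followed each other from tumour to tumour. Against control, the median log2 fold change with DHA oil was -0.05 for the mitosis genes and -0.02 for the replication genes, and with fish oil it was 0.10 and 0.11. Between single tumours of 1 diet, the median range of a mitosis gene on the log2 scale was 0.31 in control, 0.25 in DHA oil and 0.64 in fish oil, and that of a replication gene 0.21, 0.32 and 0.62. The fish oil group has 1 library more than the others, and its range includes fish oil replicate 4.

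**Figure D1:**
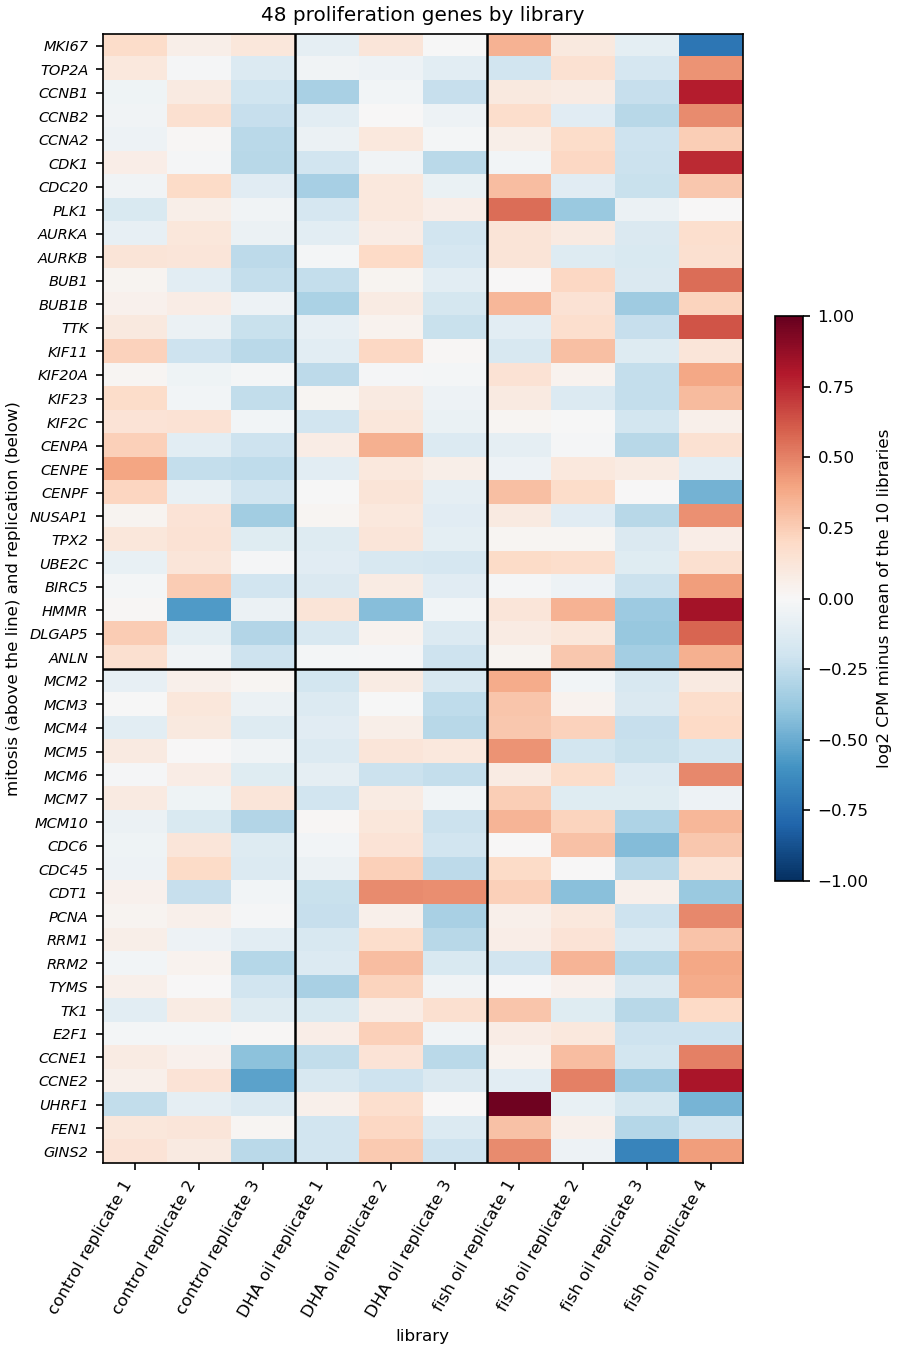
Level of each of the 48 members (rows) in each of the 10 libraries (columns), as log2 CPM minus the gene's mean over the libraries, with red above and blue below that mean. Most mitosis rows are red in fish oil replicate 4 and most rows of both sets are blue in fish oil replicate 3, and MKI67 and CENPF are blue in fish oil replicate 4.

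The mean level of each set, centred on the gene's mean over the 10 libraries, shows how the tumours were ordered. For the mitosis genes this mean was 0.08, 0.00 and -0.16 in control replicates 1, 2 and 3, -0.11, 0.05 and -0.10 in DHA oil replicates 1 to 3, and 0.10, 0.07, -0.20 and 0.27 in fish oil replicates 1 to 4, all on the log2 scale. For the replication genes it was -0.00, 0.03 and -0.13 in the controls, -0.13, 0.13 and -0.12 in the DHA oil tumours, and 0.21, 0.07, -0.23 and 0.17 in the fish oil tumours. The lowest and the highest of the 10 tumours were both fed fish oil in each set, and the control and DHA oil values lay between them. The group means were -0.03 ± 0.12 (SD, n = 3) in control, -0.05 ± 0.09 (SD, n = 3) in DHA oil and 0.06 ± 0.19 (SD, n = 4) in fish oil for mitosis, and -0.03 ± 0.09, -0.04 ± 0.15 and 0.06 ± 0.20 for replication. The diet means of each set differed by less than the SD of the fish oil tumours, and the groups overlapped.

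**Figure D2:**
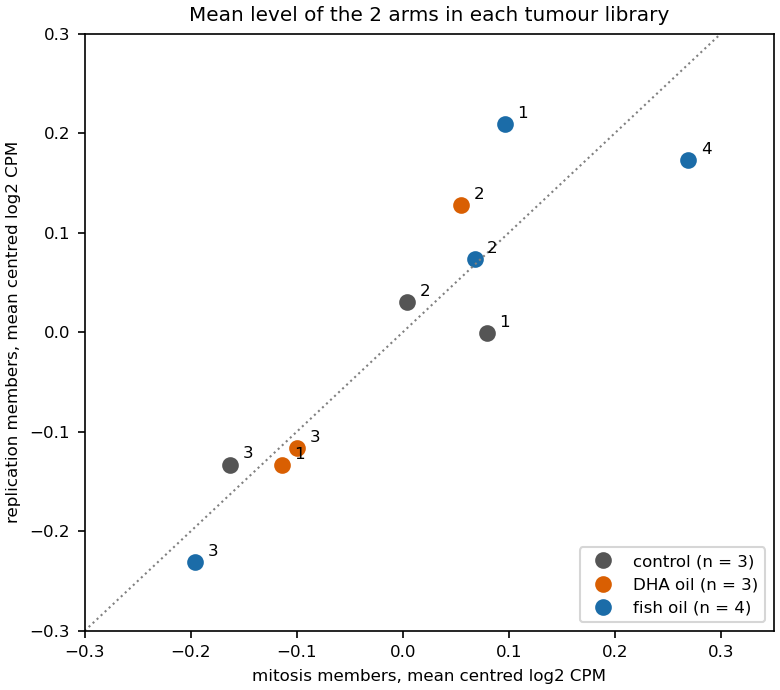
Mean centred log2 CPM of the 27 mitosis genes (horizontal) and of the 21 replication genes (vertical) in each tumour library, with the replicate number beside each point, the diets in colour and a dotted line where both are equal. The points run along the line from fish oil replicate 3 at the lower left to fish oil replicates 1 and 4 at the upper right, with the diets mixed.

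The mitosis and replication means followed each other over the 10 libraries with a Pearson r of 0.903 and a Spearman rho of 0.891, and with 0.893 and 0.915 after each diet's mean was removed. Without fish oil replicates 4 and 3, the libraries farthest from the median, r was 0.893 over 8 libraries. All points share the scaling of their library, and the correlation is given as a description. The difference of the means (mitosis minus replication) was 0.01 ± 0.06 in control, -0.01 ± 0.05 in DHA oil and 0.00 ± 0.09 in fish oil, with the extremes in fish oil replicates 1 (-0.11) and 4 (0.10). The ranges of the 3 diets overlapped in this difference too. Mitosis genes took 0.195% to 0.263% of all counts in a library and replication genes 0.187% to 0.251%, with the lowest share in fish oil replicate 3 in both sets.

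The comparison of DHA oil with control asked what differed when mice received this oil. The controls ate ordinary chow, so docosahexaenoic acid and the receipt of an oil cannot be told apart. edgeR called 0 of the 48 members (0 of all 16013 genes, 0%), and none had an unadjusted p under 0.05, where 1.02% of all genes were higher and 1.72% lower (2.74% in all). DESeq2 and limma-voom, the latter run with quality weights that let libraries count unequally, also called 0 members. Of the mitosis genes 10 had a positive and 17 a negative log2 fold change, and of the replication genes 8 and 13, beside 50.8% of all genes above 0. These counts turned with single libraries: the replication genes above 0 were 14 without control replicate 2 and 13 without DHA oil replicate 3 or with limma-voom, and 5 without DHA oil replicate 2. The mitosis genes above 0 were 14 without control replicate 1, 5 without control replicate 3 and 3 without DHA oil replicate 2. The fold changes ran from -0.16 to 0.12 for mitosis and from -0.18 to 0.34 for replication, and the 95% interval lay inside a 2-fold change for 48 of 48 members and inside a 1.5-fold change for 43.

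The comparison of fish oil with control asked what the combined oil changed. edgeR, DESeq2 and limma-voom each called 0 members (0.00624% of all genes in edgeR), and none had an unadjusted p under 0.05, where 1.64% of all genes were higher and 1.84% lower (3.48% in all). The fish oil and control tumours overlapped for all 48 members, while 1.74% of all genes were wholly higher and 2.00% wholly lower. The log2 fold change was above 0 for 22 of 27 mitosis genes and 16 of 21 replication genes, beside 51.5% of all genes, whose median was 0.01. Without fish oil replicates 2 and 4 these counts were 10 and 10, and the medians went from 0.10 to -0.02 for mitosis and from 0.11 to -0.00 for replication. Without fish oil replicate 4 alone the mitosis median was 0.01 and the replication median 0.04, and without fish oil replicate 1 alone they were 0.06 and 0.01. The mitosis and replication genes above 0 numbered 16 and 16 without fish oil replicate 4, and 19 and 11 without fish oil replicate 1. With limma-voom, which weights the libraries unequally, they were 16 and 11. Without fish oil replicate 3 the medians were 0.16 and 0.19, and 7 members were higher at an unadjusted p under 0.05. The share of all genes at that level was not counted in this refit. The intervals lay inside a 2-fold change for 47 of 48 members, the exception being HMMR, with an upper bound of 1.02.

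The comparison of the oils asked what eicosapentaenoic acid, or the fish oil itself, added to docosahexaenoic acid. All 3 tools called 0 members, as they called 0 or 1 of all genes (0% in edgeR). 3 members, CCNB1, UBE2C and MCM6, were higher in fish oil at an unadjusted p under 0.05, where 2.70% of all genes were, and 0 were lower, where 2.14% were (4.84% in all). The 2 groups overlapped for all 48 members, while 2.87% of all genes were wholly higher and 2.08% wholly lower. The median log2 fold change was 0.14 for mitosis, with 23 of 27 genes above 0, and 0.11 for replication, with 17 of 21 above 0 and 52.1% of all genes above 0. Without fish oil replicates 2 and 4 the medians were -0.01 and 0.04, 12 and 13 genes were above 0, and 0 members had an unadjusted p under 0.05. With limma-voom and its library weights 15 and 11 genes were above 0. Without fish oil replicate 4 alone the medians were 0.04 and 0.07, 18 and 15 genes were above 0, and 0 members were higher at an unadjusted p under 0.05. Without fish oil replicate 3 the medians were 0.20 and 0.22, and 14 members were higher at that level. The share of all genes at that level was not counted in these refits. The comparisons share the control, DHA oil or fish oil tumours, so their signs are not independent. With both oils pooled against control, edgeR, DESeq2 and limma-voom called 0 members (0.131% of all genes in edgeR). At an unadjusted p under 0.05, 0 members were higher and 0 lower, where 0.980% and 1.64% of all genes were (2.62% in either direction). The log2 fold change was above 0 for 35 members and below 0 for 13, beside 50.4% and 49.6% of all genes, and the medians were 0.03 and 0.04. Of the mitosis and replication genes 20 and 15 were above 0, which became 8 and 8 without fish oil replicates 2 and 4, 9 and 13 without fish oil replicate 4 alone, and 8 and 9 without control replicate 3. The medians without fish oil replicates 2 and 4 were -0.03 and -0.02. The pooled oil tumours overlapped the controls for all 48 members, while 0.462% of all genes were wholly higher and 0.662% wholly lower.

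**Figure D3:**
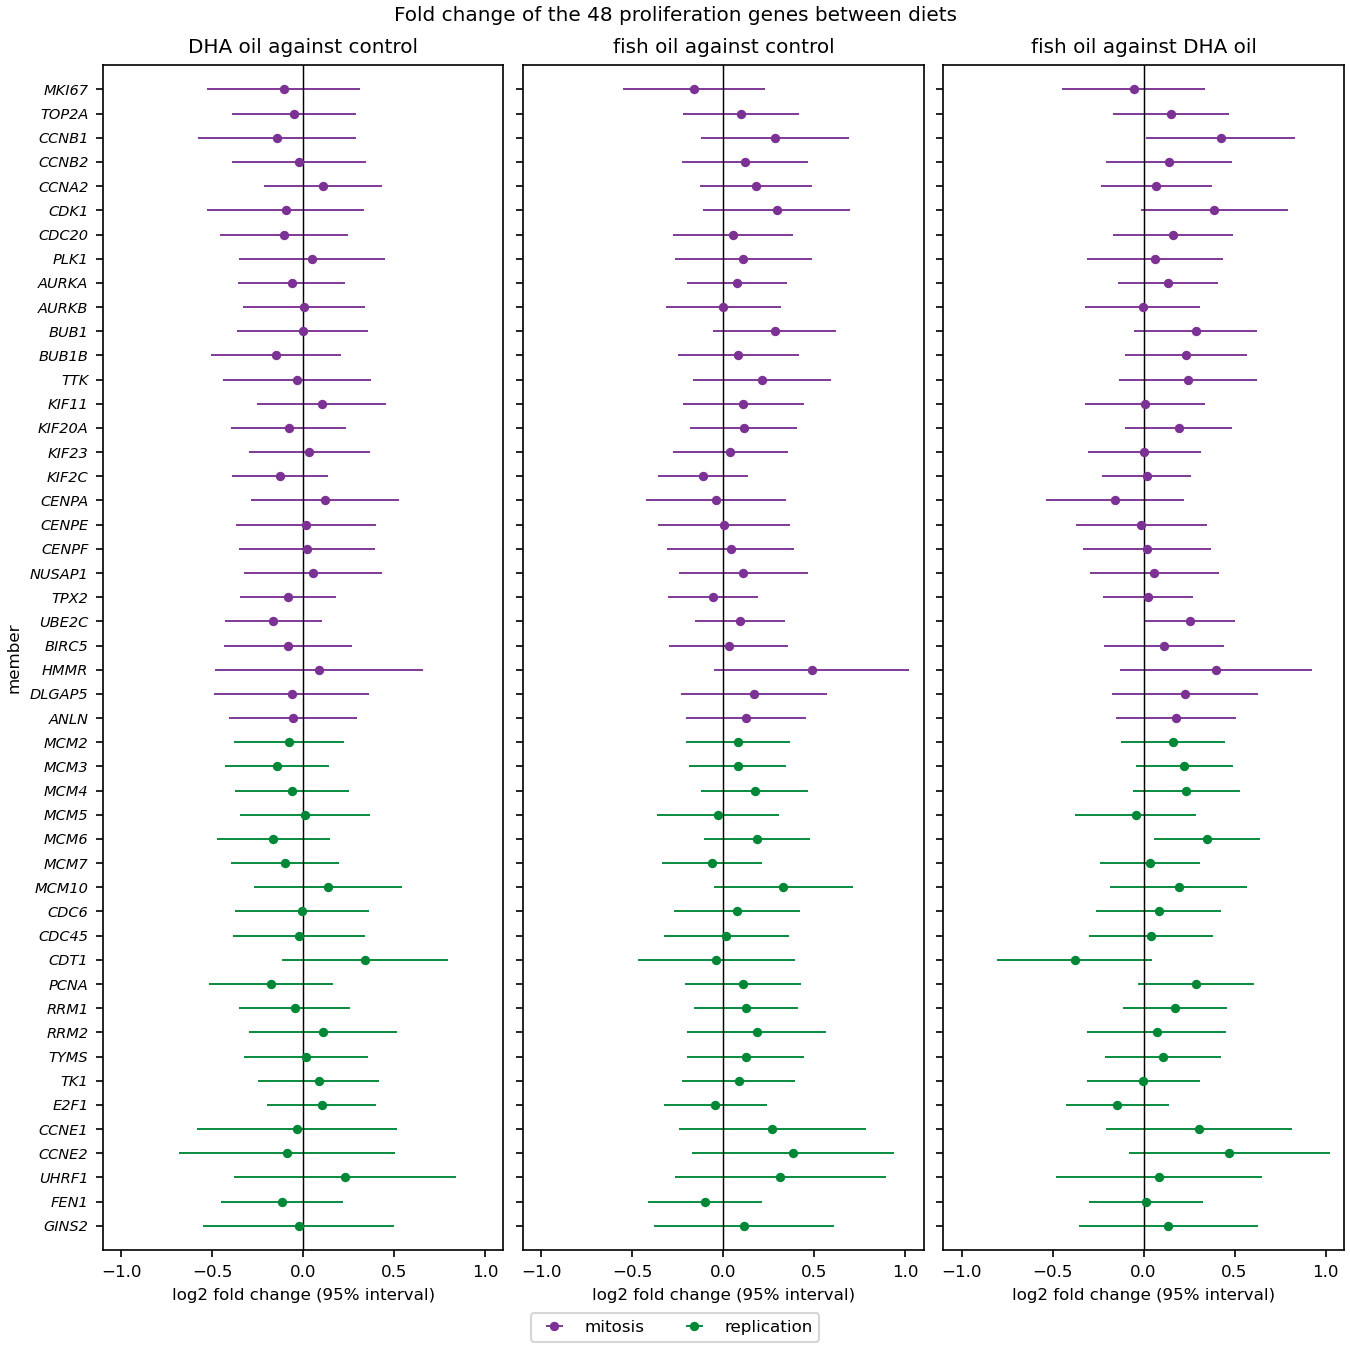
Log2 fold change with its 95% interval for each member (rows; purple mitosis, green replication) in the 3 comparisons of diets. Intervals for 48, 48 and 45 members include 0 in DHA oil against control, fish oil against control and fish oil against DHA oil, and the exceptions are CCNB1, UBE2C and MCM6.

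The proliferation marker MKI67 (ENSG00000148773) encodes Ki-67, which coats mitotic chromosomes and is stained to count cycling cells in tumours. It measured 229, 210.0 and 218 CPM in control replicates 1 to 3, 189.5, 220.0 and 201 CPM in DHA oil replicates 1 to 3, and 257, 216, 189 and 123 CPM in fish oil replicates 1 to 4. The highest and the lowest tumour were both fed fish oil. Its group means were 219 ± 9.78 (SD, n = 3), 204 ± 15.4 (SD, n = 3) and 196 ± 56.7 CPM (SD, n = 4), and its log2 fold change was -0.11 for DHA oil and -0.16 for fish oil against control (adjusted p = 0.9999 and 0.999 in edgeR). Without fish oil replicate 4 the latter was 0.01. TOP2A (ENSG00000131747), the topoisomerase that untangles replicated chromosomes, went the other way in that tumour. Its level was 365, 336 and 309 CPM in control, 331, 328 and 316 CPM in DHA oil and 297, 378, 302 and 463 CPM in fish oil, with 463 CPM in fish oil replicate 4 as the highest value and 297 CPM in fish oil replicate 1 as the lowest.

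Of the cyclins and the kinase of G2 and mitosis, CCNB1 (ENSG00000134057) encodes cyclin B1, the partner of CDK1 at mitotic entry. It stood at 108, 118 and 96.5 CPM in control, 88.8, 109 and 94.7 CPM in DHA oil and 119, 118, 94.5 and 191 CPM in fish oil. Fish oil replicate 4 was far above the other 9 tumours, and the fish oil group overlapped both others. Fish oil exceeded DHA oil by a log2 fold change of 0.42 ± 0.19 (SE; unadjusted p = 0.0431, adjusted p = 0.875), and 0.18 without fish oil replicate 4. CDK1 (ENSG00000170312) itself measured 52.3, 49.7 and 41.3 CPM in control, 43.9, 48.9 and 41.5 CPM in DHA oil and 49.2, 57.7, 43.1 and 83.8 CPM in fish oil. The same tumour was the highest, and fish oil exceeded DHA oil by a log2 fold change of 0.39 with an interval of -0.02 to 0.79, and by 0.16 without that tumour. CCNB2 and CCNA2, the cyclins B2 and A2, had log2 fold changes of 0.14 and 0.07 between the oils (-0.01 and 0.01 without fish oil replicate 4), and their highest value was again in fish oil replicate 4, at 84.2 and 30.6 CPM.

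Of the mitotic kinases, PLK1 (ENSG00000166851), the Polo kinase of centrosomes and mitotic exit, was at 53.0, 61.5 and 57.7 CPM in control, 52.5, 63.4 and 61.8 CPM in DHA oil and 86.9, 45.6, 56.8 and 59.2 CPM in fish oil. Its extremes were fish oil replicates 1 and 2, unlike those of the cyclins. AURKA (ENSG00000087586), the Aurora kinase of the spindle poles, was at 32.0, 36.7 and 32.6 CPM in control, 31.6, 35.7 and 29.8 CPM in DHA oil and 37.1, 36.2, 30.7 and 38.2 CPM in fish oil, so that the highest tumour held 1.28 times the lowest. AURKB, the Aurora kinase of the chromosomal passenger complex, had a log2 fold change of 0.00 with DHA oil and -0.00 with fish oil, each against control. TTK, a kinase of the spindle checkpoint, ranged from 45.7 to 83.1 CPM, with the highest value in fish oil replicate 4.

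The spindle checkpoint delays anaphase until chromosomes are attached. BUB1 (ENSG00000169679), one of its kinases, measured 50.8, 46.4 and 42.2 CPM in control, 42.1, 50.8 and 46.2 CPM in DHA oil and 50.0, 57.6, 44.9 and 73.4 CPM in fish oil. Its log2 fold change was -0.00 for DHA oil and 0.28 ± 0.16 (SE) for fish oil against control, or 0.13 without fish oil replicate 4, and the groups overlapped. UBE2C (ENSG00000175063), the ubiquitin-conjugating enzyme of the anaphase-promoting complex, was at 49.1, 56.3 and 51.3 CPM in control, 47.6, 46.3 and 45.9 CPM in DHA oil and 58.9, 58.2, 47.6 and 57.8 CPM in fish oil. All 3 DHA oil tumours lay below all 3 controls, as did those of 5.93% of all genes, and fish oil replicate 3 lay among the DHA oil values while the other 3 fish oil tumours exceeded every control. The log2 fold change of UBE2C was -0.16 ± 0.12 for DHA oil against control and 0.25 ± 0.12 (SE) between the oils, where the interval ran from just above 0 to 0.50 (unadjusted p = 0.0461, adjusted p = 0.875). It was 0.24 without fish oil replicate 4. BUB1B and CDC20, a checkpoint protein and its target in the anaphase-promoting complex, had log2 fold changes of -0.15 and -0.11 with DHA oil and 0.08 and 0.05 with fish oil against control (0.04 and -0.02 without fish oil replicate 4).

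Among the kinesins, which move chromosomes and spindle microtubules, KIF2C (ENSG00000142945) depolymerises microtubules at the centromere. It measured 127, 128 and 113 CPM in control, 101, 125 and 110.0 CPM in DHA oil and 117, 115, 101 and 119 CPM in fish oil, with log2 fold changes of -0.13 and -0.11 against control and overlap in both. KIF11, KIF20A and KIF23, the motors of spindle pole separation and cytokinesis, had log2 fold changes of 0.11, 0.11 and 0.04 with fish oil against control, and 0.08, 0.00 and -0.08 without fish oil replicate 4. The centromere genes CENPA, CENPE and CENPF encode a histone variant, a kinesin and a kinetochore protein. Their log2 fold changes against control were -0.04, 0.00 and 0.04 with fish oil and 0.12, 0.02 and 0.02 with DHA oil. The fish oil value of CENPF was 0.18 without fish oil replicate 4.

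The genes of spindle assembly and cytokinesis held the widest-ranging mitosis gene. HMMR (ENSG00000072571), a microtubule-binding protein that was first known as a hyaluronan receptor, was at 14.9, 9.93 and 14.1 CPM in control, 16.1, 10.9 and 14.4 CPM in DHA oil and 16.0, 18.7, 11.5 and 26.2 CPM in fish oil. The highest tumour, fish oil replicate 4, held 2.64 times the level of the lowest, control replicate 2. Its log2 fold change was 0.48 ± 0.25 (SE) in fish oil against control (unadjusted p = 0.0732, adjusted p = 0.999), and 0.25 without fish oil replicate 4. BIRC5 (ENSG00000089685), which encodes survivin of the chromosomal passenger complex, was at 111, 135 and 99.0 CPM in control, 102, 119 and 105 CPM in DHA oil and 112, 109, 97.2 and 151 CPM in fish oil. DLGAP5, ANLN and NUSAP1, which act on the spindle and the cleavage furrow, had log2 fold changes of 0.17, 0.12 and 0.11 in fish oil against control (-0.02, 0.03 and -0.05 without fish oil replicate 4), and TPX2, the activator of Aurora A, had -0.06.

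**Figure D4:**
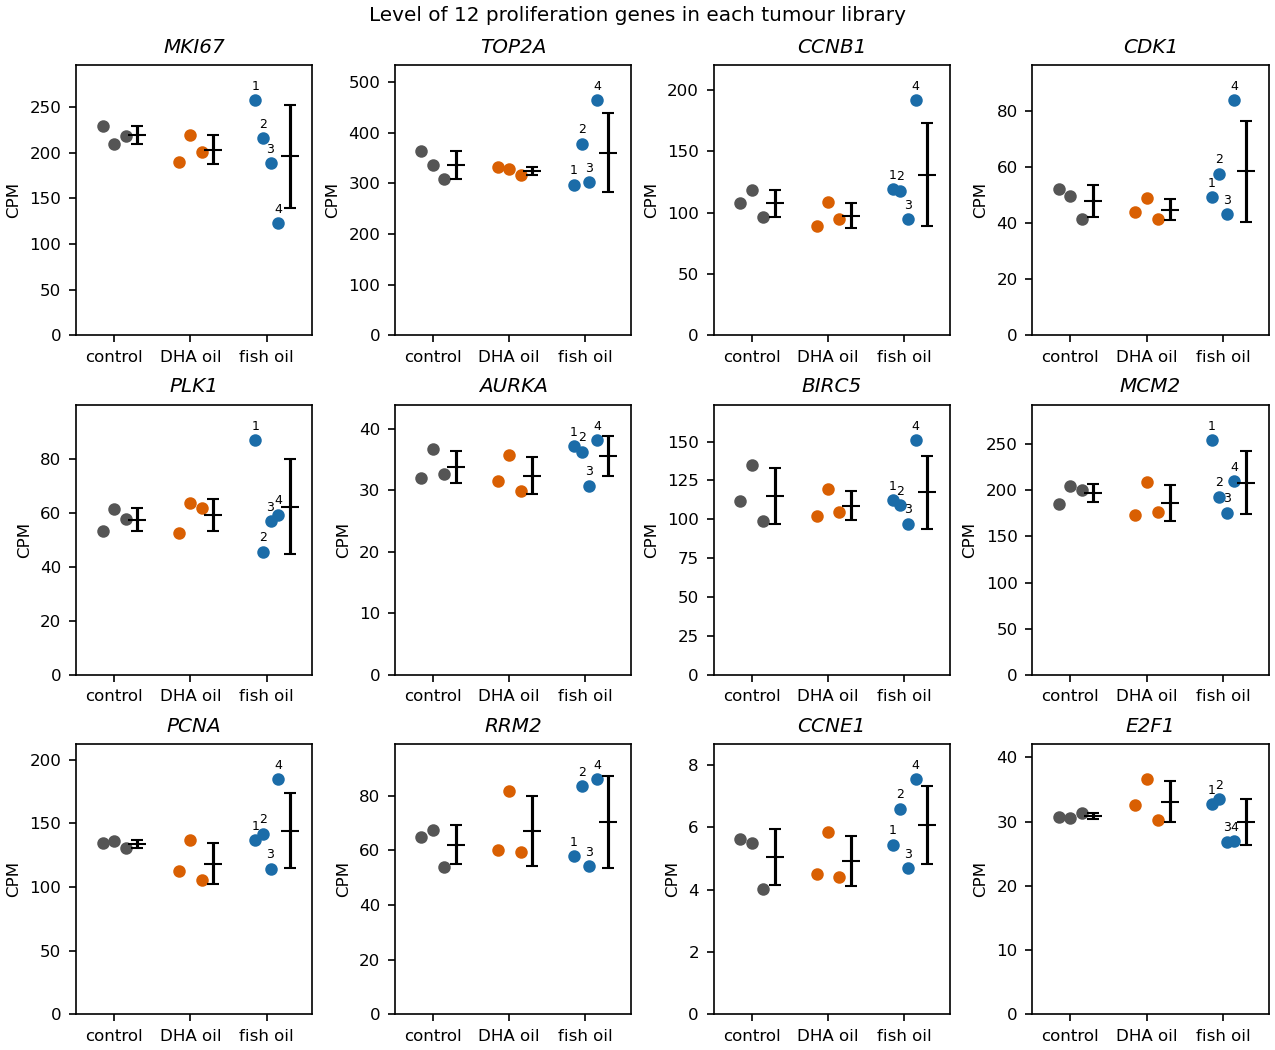
CPM of 12 members in each library by diet, with the group mean and SD in black beside the points and the replicate number above each fish oil point. Fish oil replicate 4 is the highest point for TOP2A, CCNB1, CDK1, AURKA, BIRC5, PCNA, RRM2 and CCNE1 and the lowest for MKI67, and the control and DHA oil points overlap in all 12 panels.

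Of the replication genes, the MCM helicase subunits unwind DNA at the fork. MCM2 (ENSG00000073111) was at 186, 204 and 200.2 CPM in control, 174, 209 and 177 CPM in DHA oil and 255, 193, 176 and 209.9 CPM in fish oil, with fish oil replicate 1 the highest. MCM6 (ENSG00000076003) was at 98.6, 105 and 91.1 CPM in control, 93.0, 85.5 and 84.4 CPM in DHA oil and 105, 113, 90.2 and 138 CPM in fish oil. Of the fish oil tumours only replicate 3 fell among the DHA oil values. The log2 fold change of MCM6 between the oils was 0.35 ± 0.14 (SE) with an interval of 0.06 to 0.64, the smallest p of any member there (unadjusted p = 0.0223, adjusted p = 0.875), and 0.23 without fish oil replicate 4. The log2 fold changes of the other subunits between the oils were 0.16 for MCM2, 0.22 for MCM3, 0.24 for MCM4, -0.04 for MCM5 and 0.04 for MCM7. Their intervals overlapped, and differences between the subunits were not tested.

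The licensing and firing factors load the helicase and start it. CDT1 (ENSG00000167513), which loads MCM proteins and is destroyed once S phase begins, was at 23.9, 19.7 and 22.7 CPM in control, 19.9, 32.1 and 31.9 CPM in DHA oil and 27.4, 17.3, 24.0 and 17.9 CPM in fish oil. DHA oil replicates 2 and 3 were the highest of the 10 tumours and DHA oil replicate 1 was within the control range. CDT1 had the smallest p of any member with DHA oil against control, with a log2 fold change of 0.34 ± 0.21 (SE; unadjusted p = 0.131, adjusted p = 0.9999). With 1 library left out it ran from 0.23 without DHA oil replicate 2 to 0.53 without DHA oil replicate 1. The log2 fold change of CDT1 between the oils was -0.38, with an interval of -0.80 to 0.04. This value ran from -0.57 without DHA oil replicate 1 to -0.27 without DHA oil replicate 2. MCM10 (ENSG00000065328), a factor that activates the loaded helicase, was at 15.5, 14.5 and 13.1 CPM in control, 16.2, 17.4 and 13.9 CPM in DHA oil and 20.3, 18.8, 13.0 and 20.3 CPM in fish oil. All but fish oil replicate 3 of that group exceeded every control, and the log2 fold change was 0.33 ± 0.18 (SE; unadjusted p = 0.0858, adjusted p = 0.999), or 0.27 without fish oil replicate 4. CDC6, CDC45 and GINS2, the partner of CDT1 and 2 parts of the active helicase, had 0.08, 0.02 and 0.11 in that comparison, and 0.00, -0.03 and -0.01 without that library.

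At the fork, PCNA (ENSG00000132646), the sliding clamp of the DNA polymerases, was at 134, 136 and 131 CPM in control, 113, 137 and 106 CPM in DHA oil and 137, 142, 114 and 184 CPM in fish oil. Its controls were tightly grouped, and the log2 fold change was -0.18 ± 0.16 (SE) for DHA oil against control and 0.29 ± 0.15 (SE) between the oils, with overlap in both. Without fish oil replicate 4 the latter was 0.15. UHRF1 (ENSG00000276043), which carries DNA methylation to the new strand, was at 12.1, 13.5 and 13.0 CPM in control, 14.8, 16.0 and 14.3 CPM in DHA oil and 28.0, 13.6, 12.6 and 10.4 CPM in fish oil. All 3 DHA oil tumours exceeded all 3 controls, as did those of 4.66% of all genes, while the log2 fold change was 0.23 with an interval of -0.38 to 0.84. FEN1, the flap nuclease of lagging-strand synthesis, had -0.12 with DHA oil and -0.10 with fish oil against control.

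The enzymes of nucleotide synthesis supply the fork. RRM2 (ENSG00000171848), the small subunit of ribonucleotide reductase, was at 64.7, 67.6 and 53.9 CPM in control, 60.1, 81.7 and 59.2 CPM in DHA oil and 57.8, 83.5, 54.1 and 85.9 CPM in fish oil. The 3 highest tumours came from 2 diets, and the log2 fold change was 0.11 with DHA oil and 0.18 with fish oil against control (0.07 without fish oil replicate 4). RRM1, TYMS and TK1, the large subunit of the same enzyme, thymidylate synthase and thymidine kinase, had 0.12, 0.12 and 0.08 with fish oil, and 0.06, 0.01 and 0.02 without fish oil replicate 4. TYMS overlaps an antisense gene, and the strand setting of the counting is not given in the sources used here.

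The E-type cyclins of the G1 to S transition had the lowest counts of all members. CCNE1 (ENSG00000105173), cyclin E1, was at 5.62, 5.49 and 4.01 CPM in control, 4.49, 5.87 and 4.42 CPM in DHA oil and 5.44, 6.61, 4.69 and 7.54 CPM in fish oil. CCNE2 (ENSG00000175305), cyclin E2, was at 11.2, 11.9 and 7.47 CPM in control, 9.69, 9.38 and 9.80 CPM in DHA oil and 10.1, 15.4, 8.47 and 19.0 CPM in fish oil. Both were highest in fish oil replicate 4 and next in fish oil replicate 2, and both were lowest in control replicate 3. CCNE2 had a log2 fold change of 0.38 ± 0.26 (SE) in fish oil against control (unadjusted p = 0.162, adjusted p = 0.999) and 0.47 between the oils, and without fish oil replicate 4 these were 0.16 and 0.25. E2F1 (ENSG00000101412), the transcription factor that switches on many of the other members, was at 30.7, 30.6 and 31.4 CPM in control, 32.5, 36.6 and 30.2 CPM in DHA oil and 32.7, 33.4, 26.8 and 26.9 CPM in fish oil, with log2 fold changes of 0.10 and -0.04 against control.

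Within a diet most members rose and fell together. Deviations from the diet means had a median pairwise r of 0.617 among the mitosis genes (351 pairs), 0.558 among the replication genes (210 pairs) and 0.556 between the sets (567 pairs), over 10 libraries that share their scaling. The r of pairs of other genes was not computed, so whether this is particular to the members was not tested. The r of a gene with the mean of the rest of its set exceeded 0.5 for 22 of 27 mitosis genes and 17 of 21 replication genes. The lowest values in the mitosis set belonged to MKI67 (-0.34) and CENPF (-0.15), and in the replication set to CDT1 (-0.02) and UHRF1 (0.25). Without fish oil replicate 4 they were 0.75 for MKI67, 0.87 for CENPF, 0.12 for CDT1 and 0.62 for UHRF1, while HMMR went from 0.44 to 0.10 and TOP2A from 0.71 to 0.48. HMMR and PLK1 (0.14) were then the lowest of the mitosis set. CENPF, CENPE and the tumours described next were chosen after their values were seen.

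Fish oil replicate 4 held the highest value of 15 of 27 mitosis genes and 7 of 21 replication genes, and fish oil replicate 1 of 6 and 10. The share of all genes with their highest value in these tumours was not counted. Fish oil replicate 4 also stood apart on the first principal component of all genes, so whether these counts are particular to the members was not tested. Against the mean of the other 9 libraries, replicate 4 was higher by 0.91 for HMMR, 0.89 for CCNE2, 0.87 for CCNB1, 0.82 for CDK1 and 0.70 for TTK on the log2 scale. It was lower for 3 mitosis genes, MKI67 (-0.80), CENPF (-0.53) and CENPE (-0.11), and for 6 replication genes, UHRF1 (-0.51), CDT1 (-0.41), E2F1 (-0.23), FEN1 (-0.21), MCM5 (-0.21) and MCM7 (-0.06). CENPF measured 136, 111 and 103 CPM in control, 117, 128 and 110.1 CPM in DHA oil and 145, 133, 118 and 84.3 CPM in fish oil. In this tumour the MKI67 level was thus the lowest of the 10 libraries while 15 other mitosis genes had their highest.

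Fish oil replicate 1 had another profile. UHRF1 (1.06), PLK1 (0.62), GINS2 (0.52), MCM5 (0.50), MCM2 (0.41) and MKI67 (0.39) were higher there than the mean of the other 9 libraries, while TOP2A (-0.21) and RRM2 (-0.21) were lower. Fish oil replicate 3 was below that mean for 25 of 27 mitosis genes and 20 of 21 replication genes, with GINS2 lowest at -0.72. Control replicate 3 and DHA oil replicates 1 and 3 were also mostly low, with 26, 23 and 24 of the 27 mitosis genes below. Such counts were not taken over all genes. The share of reads on the 10 most abundant genes was 4.83% for fish oil replicate 4 and between 6.16% and 7.72% elsewhere. The part of such differences in composition in the members' levels was not tested.

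**Figure D5:**
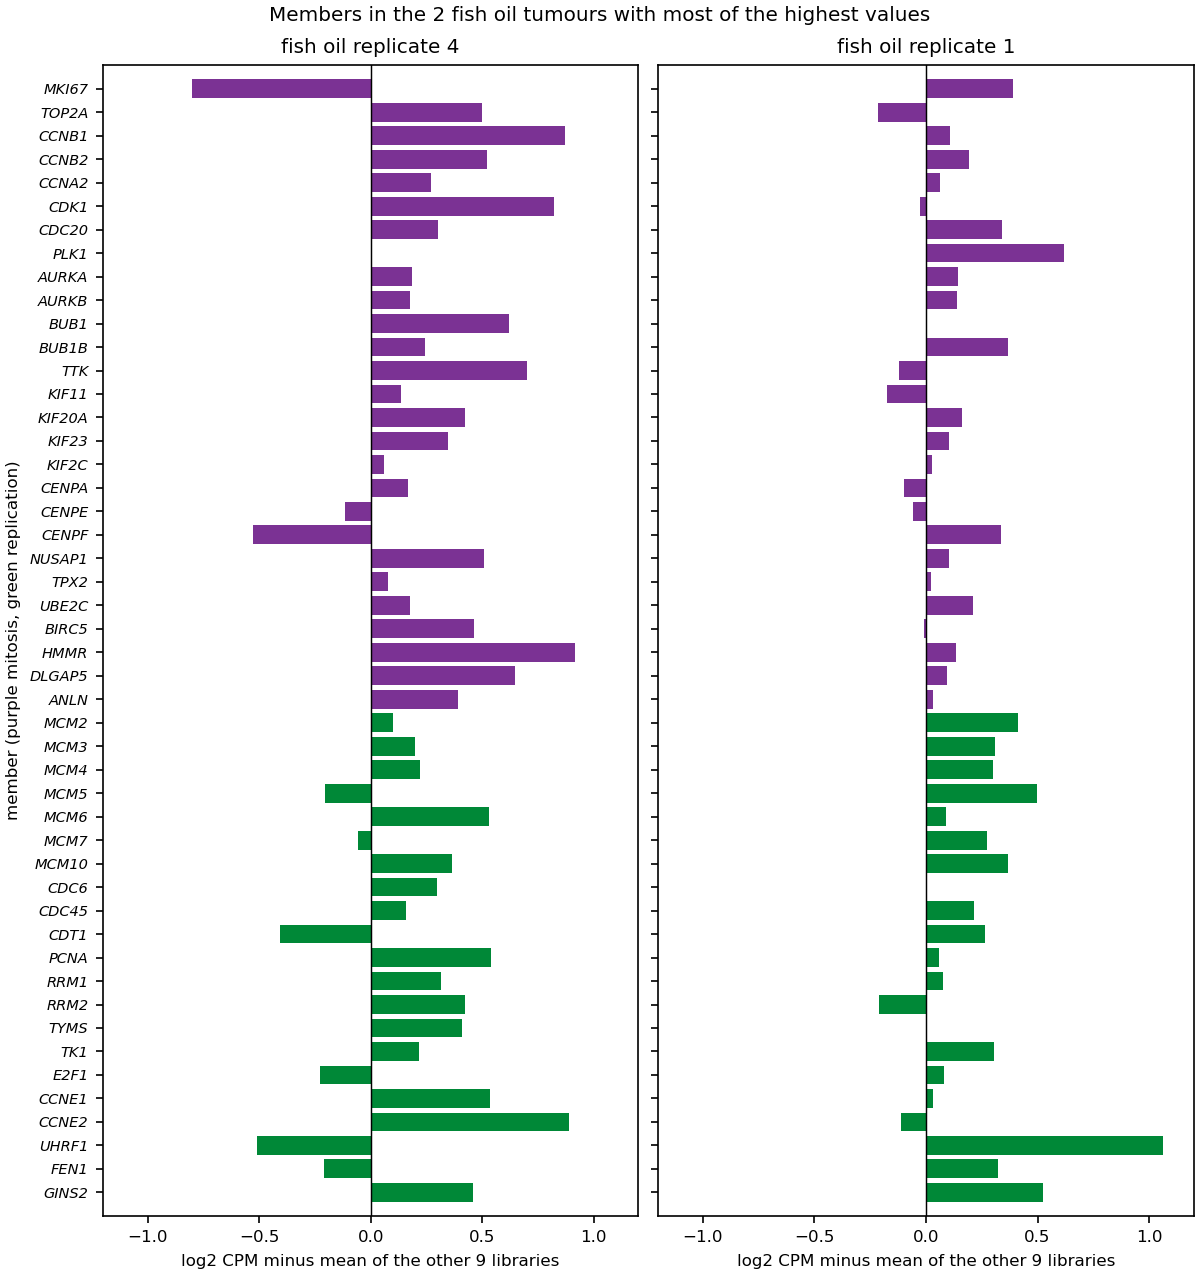
Log2 CPM of each member in fish oil replicate 4 (left) and fish oil replicate 1 (right) minus the mean of the other 9 libraries, with mitosis genes in purple and replication genes in green. In replicate 4 the bars of HMMR, CCNE2, CCNB1 and CDK1 reach over 0.8 to the right and that of MKI67 reaches -0.80, while in replicate 1 UHRF1 stands out at 1.06 and the median is 0.27 for replication and 0.10 for mitosis.

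The SD within diets on the log2 scale had a median of 0.22 for mitosis and 0.21 for replication genes, beside 0.24 over all genes tested, which include many at low counts. Set beside genes of like level, within 0.5 on the log2 scale, 19 of 27 mitosis and 16 of 21 replication genes had an SD above the median, and the median percentile was 68.3 for mitosis and 60.4 for replication. GINS2 (93.3), MKI67 (91.1), CCNB1 (90.9) and UHRF1 (90.7) had the highest percentiles. Among the members it was smallest for UBE2C (0.11) and largest for UHRF1 (0.41), CCNE2 (0.40), HMMR (0.39) and GINS2 (0.39).

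Other genes of the cell cycle were taken from the human marker pairs distributed by identifier with scran, as the 100 leading genes of each phase without the members. Of 86 G1, 93 S and 86 G2/M genes tested, edgeR called 0 in each comparison of single diets. At an unadjusted p under 0.05, fish oil against control gave 2 higher and 0 lower G1 genes, 0 and 1 S genes, and 0 and 1 G2/M genes. Of all genes 1.64% were higher and 1.84% lower. DHA oil against control gave 0 and 0, 0 and 1, and 0 and 1 (1.02% and 1.72% of all genes). Between the oils there were 1 and 1, 1 and 1, and 0 and 0 (2.70% and 2.14% of all genes). The median log2 fold changes in fish oil against control were 0.05 (G1), -0.04 (S) and 0.07 (G2/M), and with DHA oil against control they were -0.03, 0.00 and -0.02. Between the oils they were 0.11, -0.03 and 0.06. In fish oil against control 54 of 86 G1, 34 of 93 S and 59 of 86 G2/M genes were above 0, beside 51.5% of all genes. Between the oils 64, 42 and 56 were above 0, beside 52.1% of all genes. The lists were not refitted without single libraries. These lists carry identifiers without symbols, so their genes are given as counts. The G1 list also holds mitotic and S-phase members such as CCNB2, CDC20, PCNA and TYMS, so its name does not separate the phases here.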

How the data were processed

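RNA of DAOY xenograft tumours was sequenced as single-end 75 bp reads from a stranded poly(A) kit, per the labels' protocols. The deposited values are raw read counts per gene for 33538 human genes in 10 libraries. STAR, HTSeq 0.9.0 and the build GRCh38 are named in the submitters' processing notes. For the strand setting, reads with several matches, the annotation release and whether mouse reads were filtered, the processing is not given in the sources used here. Reads of the mouse host that align to human genes would add to the counts.

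From the deposited counts, edgeR 4.0.16 (R 4.3.3) fitted all 10 libraries in 1 quasi-likelihood model of diet, so that the diets share 1 estimate of the spread, after TMM scaling and filterByExpr with a count minimum of 10. This left 16013 genes, over which p-values were adjusted by Benjamini-Hochberg, with a threshold of 0.05. The standard error is the log2 fold change over the square root of F. Mean levels of gene sets use log2 CPM with a prior count of 2. The script was tested on simulated data. DESeq2 1.42.0, limma-voom 3.58.1, other scalings and filters, the replicate number as a block and fits without single libraries were alternatives. The limma-voom fit gave each library a quality weight. Other cell cycle genes came from scran 1.30.0.

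Every member is named by role. Values in every library are given for 12 members chosen by role and for the mitosis and replication members with the smallest unadjusted p in each comparison. The members and lists were chosen with earlier results of these data known. Gene symbols are those given with the member list, because the reference names at hand are of mouse and matched 0 identifiers.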

Additional observations from a re-analysis of the deposited data

Results flagged for a closer look

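In 3 of 50 measures, 1 of the 4 fish oil libraries lay apart from the other 3 by Dixon's criterion, which compares the gap to the nearest library with the group's range. Chance gives about 1 in 20 such cases. UBE2C was lowest in fish oil replicate 3 at 47.6 CPM, with the other 3 libraries between 57.8 and 58.9 CPM. MCM4, a subunit of the MCM helicase, was also lowest there, at 126 CPM, with the others between 169 and 178 CPM. MCM5, another subunit, was highest in fish oil replicate 1 at 154 CPM, with the others between 96.8 and 99.3 CPM. Only the fish oil group is large enough for this criterion, and the cause was not tested.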

How the results depend on the processing

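The count of called members was 0 under each of 20 alternatives in the 3 comparisons of single diets and each of 19 for both oils against control, where a fit of only the groups compared would be the same fit. With 1 library left out at a time, the median log2 fold change with DHA oil against control ran from -0.11 to 0.01 for mitosis and from -0.15 to 0.03 for replication. With fish oil against control it ran from 0.01 to 0.16 and from 0.01 to 0.19, and between the oils from 0.04 to 0.20 and from 0.07 to 0.25. For both oils against control it ran from -0.05 to 0.08 and from -0.02 to 0.10. The 3 members higher in fish oil than in DHA oil at an unadjusted p under 0.05 became 0 with limma-voom, with the replicate block, and without fish oil replicate 4 or DHA oil replicate 3. They became 1 with only the groups compared and without DHA oil replicate 1 or any 1 of the controls, and 14 without fish oil replicate 3. For fish oil against control, 0 such members became 7 without fish oil replicate 3, and 1 without fish oil replicates 2 and 4 or with no filter on low counts. The share of all genes at an unadjusted p under 0.05 was not counted in these alternatives. With the replicate block the medians were 0.01 (mitosis) and 0.04 (replication) for fish oil against control and 0.04 and 0.06 between the oils, and 0 members were called. Only fish oil has a replicate 4, so the block term of that number takes up this library. The block fit thus compares the diets without fish oil replicate 4 and is not independent of leaving it out. Deviations from the diet means over all genes correlated between -0.171 and 0.182 in same-numbered libraries of different diets, above 0.1 in 1 of 9 pairs. In differently numbered libraries they correlated between -0.237 and 0.266, above 0.1 in 5 of 24 pairs. The numbers were therefore not taken as pairs. Depth limits CCNE1 most, with a lowest count of 29 reads.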
